A study of Mus musculus with 6 samples.

Results

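The unfolded protein response was followed here through 10 genes: Ern2, Atf6, Xbp1, Hspa5, Hsp90b1, Sdf2l1, Herpud1, Atf4, Ddit3 and Asns. They were taken by name, as the array row with that single gene symbol and, where a gene has several rows, the row with the highest mean. All 10 were on the array, each on 1 of the 23521 rows with a single symbol, among 41345 rows in all. The study measured RNA from colonic mucosa of 6 male BALB/c mice on Affymetrix Mouse Gene 2.0 ST arrays, with 1 array per mouse. A WT group of 4 mice (Mthfd1S+/+) was set against 2 heterozygotes (Mthfd1S+/-), which are deficient in the synthetase activity of the folate enzyme MTHFD1. Mice of both genotypes had received the colon carcinogen azoxymethane (AOM, 6 mg/kg) at 3 months of age. They then had 2 rounds of 4 days on 3% DSS (dextran sulfate sodium, a polymer that damages the gut lining), begun 1 and 4 weeks after AOM, and were killed at 13 weeks. The labels' age field reads 7 months, and their source field writes the mutant genotype as Mthfd1+/-, without the S. The tissue lay beside tumours and was labelled normal, so no mouse without AOM and DSS was compared. The comparison asks how the synthetase deficiency moves transcripts of this mucosa.

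Proteins that enter the secretory pathway fold in the endoplasmic reticulum (ER), and the unfolded protein response adjusts that capacity to the load. Its sensors sit in the ER membrane. IRE1 splices the mRNA of Xbp1, Atf6 is cut in the Golgi to free a transcription factor, and PERK phosphorylates the initiation factor eIF2 alpha, which favours translation of Atf4. The first 2 branches raise ER chaperones and degradation factors, called the chaperone arm below. The third raises Ddit3 and amino acid genes, called the Atf4 arm, which amino acid shortage can also switch on without ER stress. In the intestine Ern2 (IRE1 beta) belongs to the epithelium and above all to mucus-producing goblet cells, which carry a heavy secretory load. Splicing of Xbp1, cleavage of Atf6 and translation of Atf4 do not show in these arrays, which read total transcript levels.

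Promoter sequences are shown for the chaperone arm and for Asns. Those of Xbp1, Atf4 and Ddit3, which held no match to the elements searched, are not printed. The windows are the 250 bases before the annotated start in RefSeq (GRCm38.p6), printed in the sense of the gene. Capitals mark exact matches, on either strand, to 4 elements chosen after the sequences had been seen. ERSE, bound by Atf6 with NF-Y, was searched as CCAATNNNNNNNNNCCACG. ERSE-II was searched as ATTGGNCCACG, the core of the Xbp1 element UPRE as TGACGTG, and the element of Atf4 with C/EBP proteins, called CARE, as TGATGNAA.
Hspa5, chr2:34771840-34772089, plus strand: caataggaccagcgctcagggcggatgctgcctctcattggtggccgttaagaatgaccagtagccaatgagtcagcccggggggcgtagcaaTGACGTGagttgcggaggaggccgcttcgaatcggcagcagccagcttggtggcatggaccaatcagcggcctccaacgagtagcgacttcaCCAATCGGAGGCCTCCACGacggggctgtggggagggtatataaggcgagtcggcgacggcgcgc
Hsp90b1, chr10:86705445-86705694, minus strand: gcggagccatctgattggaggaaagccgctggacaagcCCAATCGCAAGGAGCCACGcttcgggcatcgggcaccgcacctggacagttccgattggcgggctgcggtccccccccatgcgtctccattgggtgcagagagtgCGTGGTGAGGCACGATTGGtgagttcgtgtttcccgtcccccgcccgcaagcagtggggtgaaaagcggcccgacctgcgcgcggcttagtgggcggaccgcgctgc
Sdf2l1, chr16:17132384-17132633, minus strand: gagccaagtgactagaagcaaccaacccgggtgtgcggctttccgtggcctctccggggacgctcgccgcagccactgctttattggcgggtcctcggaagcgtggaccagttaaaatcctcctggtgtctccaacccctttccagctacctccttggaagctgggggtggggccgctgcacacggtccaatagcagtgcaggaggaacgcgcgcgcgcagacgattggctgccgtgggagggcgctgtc
Herpud1, chr8:94386179-94386428, plus strand: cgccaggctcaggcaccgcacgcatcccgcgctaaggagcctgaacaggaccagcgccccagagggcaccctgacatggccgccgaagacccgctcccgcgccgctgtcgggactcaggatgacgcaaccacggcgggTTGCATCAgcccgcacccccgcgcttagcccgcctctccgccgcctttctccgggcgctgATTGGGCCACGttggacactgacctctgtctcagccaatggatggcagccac
Asns, chr6:7693210-7693459, minus strand: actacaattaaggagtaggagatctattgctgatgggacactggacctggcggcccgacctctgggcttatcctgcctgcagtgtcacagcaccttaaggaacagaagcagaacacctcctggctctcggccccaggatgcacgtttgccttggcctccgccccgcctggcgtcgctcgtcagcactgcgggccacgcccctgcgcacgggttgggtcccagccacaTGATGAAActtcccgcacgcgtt

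Hspa5 held 1 ERSE, from 65 to 47 bases before the start, and 1 UPRE core from 157 to 151. Hsp90b1 held an ERSE on each strand, from 212 to 194 and from 107 to 89 bases before the start. Herpud1 held both an ERSE-II (52 to 42) and, on the other strand, a CARE (112 to 105). Asns held a CARE from 23 to 16 bases before the start. No match lay in the Sdf2l1 window, nor in those of Xbp1, Atf4 and Ddit3, and windows for Ern2 and Atf6 were not used here. Of all 32851 promoter windows of this length, 0.113% held an ERSE, 0.0304% an ERSE-II, 1.65% a UPRE core and 3.45% a CARE. ERSE contains the letters CCAAT and CCACG, which ERSE-II holds with the first part on the opposite strand, and no 2 matches overlapped. A match describes these letters and says nothing on binding in this tissue.

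No change between the genotypes was detected in any of the 10 genes. In limma, with Benjamini-Hochberg adjustment over all 23521 tested rows, 0 of the 10 passed 0.05, against a background of 0% of all rows. At an unadjusted p under 0.05 the count was also 0 of 10, against 5.79% of all rows. The levels of WT and Mthfd1S+/- mice overlapped in all 10 genes, where 14% of all rows had groups that did not. The 95% intervals, given gene by gene below, hold changes of up to 1.47-fold for Herpud1 and 1.43-fold for Hspa5, and of at most 1.12-fold upward for Atf4. Levels also varied by mouse: for Hspa5, Hsp90b1 and Sdf2l1 the 2 highest mice were WT mouse 3 and Mthfd1S+/- mouse 2, which held for no gene of the Atf4 arm and not for Herpud1.

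**Figure D1:**
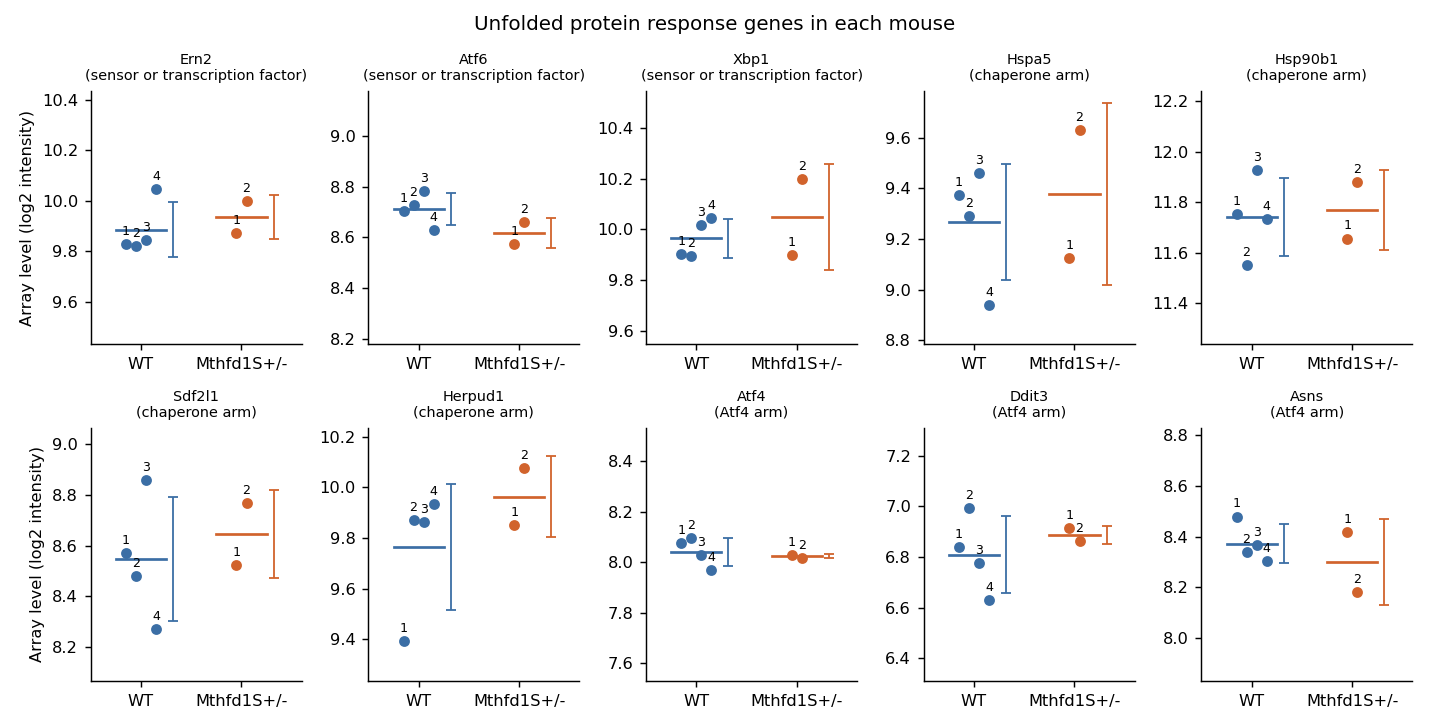
Array level (log2 intensity, each panel spanning 1 log2 unit) of the 10 genes, with a numbered point per mouse, horizontal lines at the group means and error bars of 1 SD (n = 4 WT, n = 2 Mthfd1S+/-). The points of the 2 groups overlap in every panel, and in the Hspa5 panel the Mthfd1S+/- mice stand apart at 9.12 and 9.63.

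The arrays themselves were alike. Their medians ran from 5.48 to 5.53 on the log2 scale, and correlations across rows between any of the 6 were 0.991 to 0.995. The targeted gene read 7.64, 7.63, 7.50 and 7.75 in WT and 7.96 and 7.63 in Mthfd1S+/- mice, and how the allele affects its transcript is not stated in the labels. Epithelial markers were high in every mouse, with the colonocyte keratin Krt20 at 11.70 to 12.05 and the goblet cell mucin Muc2 at 13.38 to 13.51. Smooth muscle markers were present too, such as Myh11 at 11.43 to 12.02, so the samples hold RNA from outside the epithelium. In bulk tissue, fewer cells of a type and less RNA per cell cannot be told apart.

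Among the sensors, Ern2 read 9.83, 9.82, 9.85 and 10.05 in the WT group (mice 1 to 4, in that order throughout) against 9.87 and 10.00 in Mthfd1S+/- mice 1 and 2. WT mouse 4 stood above the other WT mice, and both Mthfd1S+/- mice fell inside the WT range. The log2 difference, here and below Mthfd1S+/- minus WT, was 0.050 ± 0.098 (SE; 95% interval -0.18 to 0.27; limma adjusted p 0.963; exact two-sided permutation p 0.733).

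Atf6 encodes the sensor that is itself the precursor of a transcription factor. It read 8.70, 8.73, 8.78 and 8.63 in WT and 8.57 and 8.66 in Mthfd1S+/- mice. Mthfd1S+/- mouse 1 was the lowest of the 6, and mouse 2 lay above WT mouse 4. Between genotypes the log2 difference came to -0.094 ± 0.085 (95% interval -0.29 to 0.100; limma adjusted p 0.913; exact permutation p 0.267).

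Xbp1, the factor made active by IRE1 splicing, read 9.90, 9.90, 10.02 and 10.05 in WT and 9.90 and 10.20 in Mthfd1S+/- mice. Mthfd1S+/- mouse 2 was the highest of the 6, and mouse 1 lay with the lowest WT mice. The log2 difference for Xbp1 was 0.084 ± 0.11 (95% interval -0.16 to 0.33; limma adjusted p 0.946; exact permutation p 0.467). A split of 6 arrays into 4 and 2 can be made in 15 ways, so the exact permutation p of a single gene cannot go below 0.0667.

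In the chaperone arm, Hspa5 encodes BiP, the main Hsp70 of the ER lumen and the usual gauge of the response. Its levels were 9.37, 9.29, 9.46 and 8.94 in WT against 9.12 and 9.63 in Mthfd1S+/-. From high to low the order was Mthfd1S+/- mouse 2, WT mice 3, 1 and 2, Mthfd1S+/- mouse 1 and WT mouse 4. The highest mouse stood 1.62-fold above the lowest, the widest span of the 10 genes. The group means were 9.27 ± 0.23 (SD, n = 4) and 9.38 ± 0.36 (SD, n = 2). The log2 difference was 0.11 ± 0.18 (SE; 95% interval -0.29 to 0.52; limma adjusted p 0.954; exact permutation p 0.667). Without Mthfd1S+/- mouse 2 it was -0.14, and without mouse 1 it was 0.37, so these 2 mice lay on opposite sides of the WT mean.

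Sdf2l1, an ER protein that works with BiP and its J-domain partners, followed the same mice. It read 8.57, 8.48, 8.86 and 8.27 in WT and 8.52 and 8.77 in Mthfd1S+/- mice. WT mouse 3 was highest and WT mouse 4 lowest, with Mthfd1S+/- mouse 2 next to the top. The log2 difference was 0.100 ± 0.16 (95% interval -0.26 to 0.46; limma adjusted p 0.952; exact permutation p 0.667), and -0.024 without Mthfd1S+/- mouse 2.

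Hsp90b1 encodes GRP94, the Hsp90 of the ER. It read 11.75, 11.55, 11.93 and 11.73 in WT and 11.66 and 11.88 in Mthfd1S+/- mice. Again WT mouse 3 and Mthfd1S+/- mouse 2 were the highest, but here WT mouse 2 was the lowest. On the log2 scale the difference was 0.027 ± 0.12 (95% interval -0.25 to 0.30; limma adjusted p 0.988; exact permutation p 0.867). It was -0.085 without Mthfd1S+/- mouse 2 and -0.037 without WT mouse 2.

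Herpud1 encodes a membrane protein of ER-associated degradation, which returns misfolded proteins to the cytosol. It read 9.40, 9.87, 9.86 and 9.94 in WT and 9.85 and 10.08 in Mthfd1S+/- mice. WT mouse 1 stood alone at the bottom, 1.60-fold below the highest mouse, and the other 5 lay between 9.85 and 10.08. The log2 difference was 0.20 ± 0.16 (95% interval -0.16 to 0.56; limma adjusted p 0.895; exact permutation p 0.533), the largest of the 10 genes. It was 0.075 without WT mouse 1, 0.085 without Mthfd1S+/- mouse 2 and 0.31 without Mthfd1S+/- mouse 1.

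In the Atf4 arm, Atf4 itself, the shared transcription factor of the integrated stress response, was the steadiest of the 10. It read 8.07, 8.09, 8.03 and 7.97 in WT and 8.03 and 8.02 in Mthfd1S+/- mice. The highest and lowest mouse were 1.09-fold apart, and both were WT. The SD over the 6 mice was 0.045, and 2.89% of all rows had a smaller one, whereas for Hspa5 that share was 91.0%. Rows were not matched for level in this ranking. The log2 difference was -0.018 ± 0.082 (95% interval -0.20 to 0.17; limma adjusted p 0.988; exact permutation p 0.8).

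Ddit3 encodes CHOP, a factor tied to cell death under lasting stress. It read 6.84, 6.99, 6.78 and 6.63 in WT and 6.91 and 6.86 in Mthfd1S+/- mice. Both Mthfd1S+/- mice lay inside the WT range, between WT mice 1 and 2. For Ddit3 the log2 difference was 0.079 ± 0.11 (95% interval -0.17 to 0.33; limma adjusted p 0.948; exact permutation p 0.533). It was 0.018 without WT mouse 4 and 0.14 without WT mouse 2.

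Asns encodes asparagine synthetase, a classical Atf4 target that responds to amino acid supply. It read 8.48, 8.34, 8.37 and 8.30 in WT and 8.42 and 8.18 in Mthfd1S+/- mice. Mthfd1S+/- mouse 2, highest for Hspa5, Xbp1 and Herpud1, was the lowest here. For Asns the log2 difference was -0.072 ± 0.099 (95% interval -0.30 to 0.16; limma adjusted p 0.948; exact permutation p 0.467), and it was 0.047 without that mouse.

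**Figure D2:**
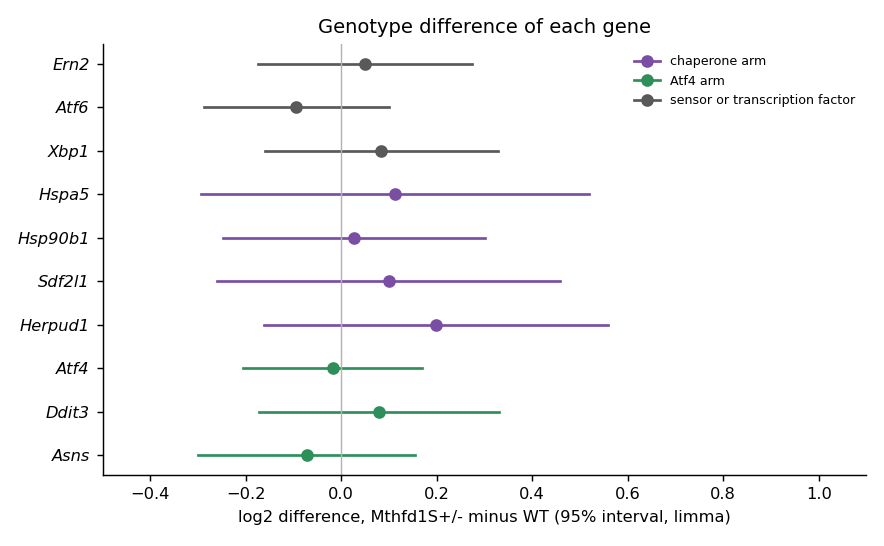
Log2 difference of each gene (points, Mthfd1S+/- minus WT) with its 95% interval from limma (lines), coloured by role. Each of the 10 intervals includes 0, and those of Hspa5 and Herpud1 reach highest, to 0.52 and 0.56.

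Set side by side, the chaperone arm stood above the Atf4 arm only in WT mouse 3 and Mthfd1S+/- mouse 2. WT mouse 4 was the lowest in both arms. For each gene the mean over 6 mice was subtracted, and the values were averaged over an arm, as a description with no test. The chaperone arm stood at -0.092, -0.068, 0.16 and -0.15 in the WT group, against -0.078 and 0.22 in the Mthfd1S+/- group. WT mouse 3 and Mthfd1S+/- mouse 2 were above the mean and the other 4 below it. In WT mouse 1 the low average came from Herpud1 alone, at -0.44. Its other chaperone arm genes lay near or above the mean (Hspa5 0.071, Hsp90b1 0.0044, Sdf2l1 -0.0076). The Atf4 arm stood at 0.058, 0.070, -0.016 and -0.11 in WT and at 0.048 and -0.053 in Mthfd1S+/- mice. The chaperone arm minus the Atf4 arm was 0.18 in WT mouse 3 and 0.28 in Mthfd1S+/- mouse 2, and between -0.15 and -0.041 in the others. All 4 chaperone arm genes were higher in Mthfd1S+/- mice (median log2 difference 0.11), as were 54.0% of all rows (median 0.012). Without Mthfd1S+/- mouse 2 the chaperone arm median was -0.054, and without mouse 1 it was 0.27. The Atf4 arm had 1 gene higher and 2 lower, with a median of -0.018.

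**Figure D3:**
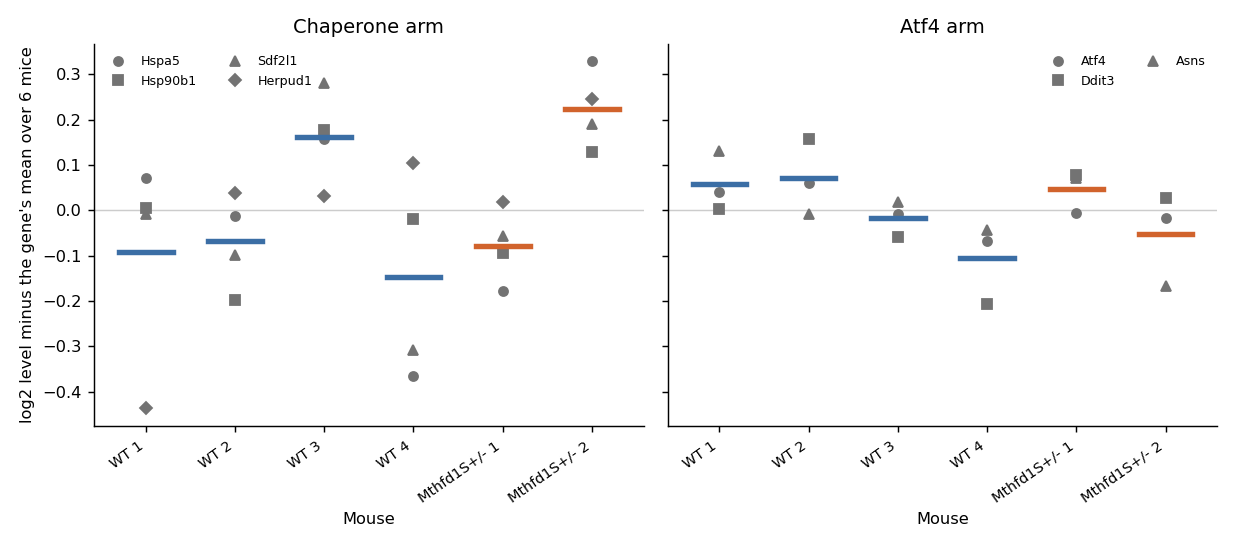
Level of each gene minus its own mean over 6 mice (grey symbols, log2) by mouse, with coloured bars at the mean of the arm (blue WT, orange Mthfd1S+/-). Bars of the chaperone arm are highest at 0.16 in WT mouse 3 and 0.22 in Mthfd1S+/- mouse 2, where those of the Atf4 arm are at -0.016 and -0.053.

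Correlations were computed over the 6 mice for all 45 pairs of the 10 genes, with exact permutation p-values over 720 orders and Benjamini-Hochberg adjustment over the pairs. None passed adjustment, and 4 had an unadjusted p under 0.05 for Pearson's r. Hspa5 and Sdf2l1 had r = 0.89 (exact permutation p 0.025, adjusted 0.375) and Spearman's rho 0.89 (exact p 0.0333, adjusted 0.375). Without the 2 mice farthest from the median of Hspa5, WT mouse 4 and Mthfd1S+/- mouse 2, r was 0.73. Hspa5 and Hsp90b1 had r = 0.56 (exact p 0.249, adjusted 0.772) and rho 0.71 (exact p 0.136, adjusted 0.669), with r = 0.71 without those 2 mice. Hspa5 and Atf4 had r = 0.37 (exact p 0.464, adjusted 0.808) and rho 0.029 (exact p 1, adjusted 1), with r = 0.077 without the same 2. Genes of the same arm did not all vary together. Herpud1 had r = 0.045 with Hspa5, 0.15 with Hsp90b1 and 0.090 with Sdf2l1, and Ddit3 had r = 0.13 with Asns. Herpud1 and Asns ran in exactly opposite order. For that pair rho was -1 (exact p 0.00278, the smallest that 6 mice can give, adjusted 0.125) and r was -0.86 (exact p 0.0431, adjusted 0.484), or -0.86 without WT mouse 1 and Mthfd1S+/- mouse 2.

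Ern2 and Atf4 had r = -0.86 (exact p 0.025, adjusted 0.375) and rho -0.94 (exact p 0.0167, adjusted 0.375), with r = -0.87 without WT mouse 4 and Mthfd1S+/- mouse 2. Over the 6 mice Ern2 spans 1.17-fold and Atf4 1.09-fold. Xbp1 and Asns had r = -0.88 (exact p 0.025, adjusted 0.375) and rho -0.60 (exact p 0.242, adjusted 0.669), and without Mthfd1S+/- mouse 2 and WT mouse 4 r was -0.34, so that relation rests on those mice. Atf4 and Ddit3, factor and target, had r = 0.82 (exact p 0.0542, adjusted 0.488) and rho 0.71 (exact p 0.136, adjusted 0.669). Without WT mice 2 and 4 their r was -0.11.

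Beyond the 10, 102 further genes of the pathway were measured from 6 lists (a gene can stand on more than 1). None passed the adjusted threshold in limma. At an unadjusted p under 0.05 were 3 of the 102, against 5.79% of all rows, and in 10 of the 102 the groups did not overlap, against 14% of all rows. Both counts are below the background.

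Of the other ER chaperones and foldases, 23 of 25 were measured, 21 of them higher and 2 lower in Mthfd1S+/- mice (median log2 difference 0.055), with 0 past the adjusted threshold. This count rests on a single animal: without Mthfd1S+/- mouse 2 it was 10 of 23, and leaving out any other mouse gave 18 to 22. Ppib, a cyclophilin of the ER, was higher without overlap (0.11 ± 0.086, SE), where 7.96% of all rows were. Ero1a, the oxidase that feeds disulfide bond formation, was lower without overlap (-0.22 ± 0.099, limma adjusted p 0.837), where 6.04% of all rows were. Dnajb9, a J-domain partner of BiP, had 0.19 ± 0.12, or 0.057 without Mthfd1S+/- mouse 2, and the large Hsp70 relative Hyou1 had 0.15 ± 0.18, which was -0.038 without Mthfd1S+/- mouse 2.

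In 13 of these 23 genes, but not in the other 10, WT mouse 3 and Mthfd1S+/- mouse 2 were the 2 highest of the 6, as in 3 of the 4 chaperone arm genes, 0 of the 3 Atf4 arm genes and 6.74% of all rows. This count was made after the values had been seen and has no test. Hyou1 read 9.44, 9.23, 9.84 and 9.30 in WT and 9.41 and 9.79 in Mthfd1S+/- mice. Ero1a, which is also on the list of Atf4 and Chop targets, was by contrast lowest in Mthfd1S+/- mouse 2. The same 2 mice were highest for 4 of 17 degradation factors, 2 of 21 translocation genes and 3 of 26 Atf4 and Chop targets. Among cell type markers, they were highest for 3 of 11 macrophage and dendritic cell, 2 of 12 smooth muscle and 2 of 12 plasma cell markers. The counts were 2 of 14 for goblet cells, 1 of 12 for enteroendocrine cells and 0 of 14 for colonocytes. Mthfd1S+/- mouse 2 by itself was highest for 12 of 23 chaperones, 10 of 17 degradation factors and 6 of 21 translocation genes. It was highest for 3 of 26 Atf4 and Chop targets and for 19.4% of all rows.

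**Figure D4:**
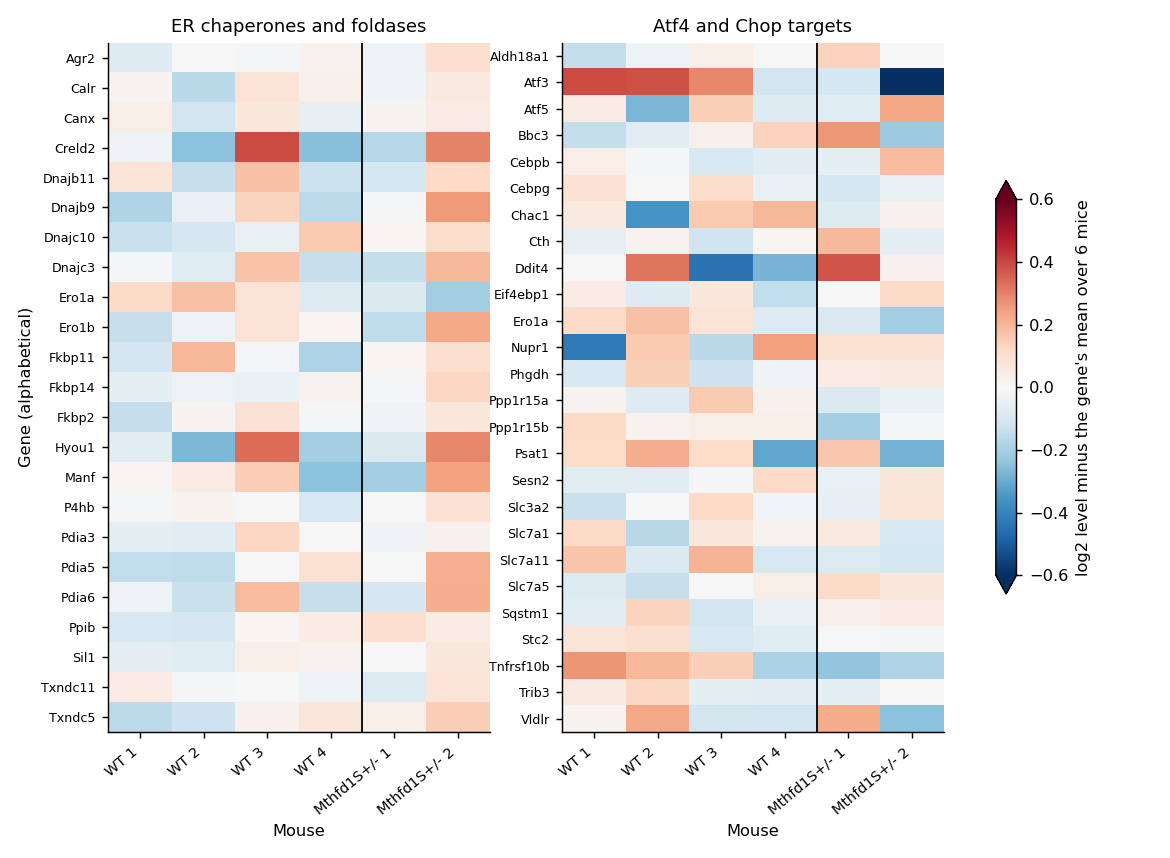
Level of each measured gene of 2 lists minus its own mean over 6 mice (colour, log2, limited at 0.6 either way), with genes in alphabetical order and a black line between the genotypes. In the left panel the columns of WT mouse 3 and Mthfd1S+/- mouse 2 are the reddest, with 13 of 23 genes highest in those 2 mice, and in the right panel 3 of 26 are.

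Among the 102 genes, the 3 whose levels over the 6 mice were most like those of Hspa5 by Pearson's r were Manf, Ssr1 and Ubxn4. Manf, a secreted ER stress factor that binds BiP, had r = 0.97 (exact permutation p 0.00278) and rho 0.94 (exact p 0.0167). Ssr1, of the translocon, had r = 0.95 (exact p 0.00417) and rho 1 (exact p 0.00278), and Ubxn4, of ER-associated degradation, had r = 0.92 (exact p 0.0194) and rho 0.89 (exact p 0.0333). Without WT mouse 4 and Mthfd1S+/- mouse 2, r was 0.94, 0.92 and 0.88 in that order. Those most like Atf4 were Sec11c (r = 0.87, exact p 0.0292; rho 0.71, exact p 0.136), Trib3 (r = 0.87, exact p 0.0167; rho 0.83, exact p 0.0583) and Sec61g (r = 0.87, exact p 0.025; rho 0.66, exact p 0.175). Without WT mice 2 and 4, r was 0.94, 0.75 and 0.94 in that order. Being the highest of 102, these values describe likeness and are no test of it.

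Degradation factors of the ER (17 of 19 measured) had 12 higher and 5 lower, with a median log2 difference of 0.047, and 0 passed. Faf2 (0.12 ± 0.081) and Os9 (0.084 ± 0.079), a lectin that hands over misfolded glycoproteins, were the 2 of 17 whose groups did not overlap, both higher, against 7.96% of all rows. Translocation and transport genes (21 of 22) had 12 higher and 9 lower, with a median of 0.025, and 0 passed. Sec62 had 0.19 ± 0.11, or 0.099 without Mthfd1S+/- mouse 2. Of the 21, 3 were higher without overlap, against 7.96% of all rows. These were Rpn1, of the oligosaccharyltransferase, at 0.12 ± 0.085, with Ddost and Sec61a1, named after their values were seen. The other sensors and transcription factors of the response (12 of 12) had 7 higher and 5 lower, with a median of 0.042, and 0 passed. Ern1, the general IRE1, had 0.081 ± 0.094, and Creb3l2, a membrane-bound factor of secretory cells, had 0.26 ± 0.14, which was 0.027 without Mthfd1S+/- mouse 2.

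Targets of Atf4 and Chop (26 of 30 measured) split evenly, 13 higher and 13 lower, with a median of 0.0077, and 0 passed. At an unadjusted p under 0.05 were 2 of 26, both lower in Mthfd1S+/- mice, against 5.79% of all rows in either direction. Atf3, a stress factor that is also an immediate early gene, read 8.64, 8.63, 8.53 and 8.13 in WT and 8.14 and 7.40 in Mthfd1S+/- mice, at -0.71 ± 0.21 (limma adjusted p 0.837). Its lowest value was that of Mthfd1S+/- mouse 2, and without it the difference was -0.34. Tnfrsf10b, a death receptor, had -0.31 ± 0.13 (limma adjusted p 0.837). Ppp1r15b, a regulatory subunit of the eIF2 alpha phosphatase, had -0.16 ± 0.089, and the amino acid transporter Slc7a5 had 0.13 ± 0.087. Of the 26, 1 was higher without overlap (Slc7a5), against 7.96% of all rows. Lower without overlap were 2, Ppp1r15b and Ero1a, against 6.04% of all rows. PERK (Eif2ak3), counted with the sensors above, had -0.032 ± 0.083 (limma adjusted p 0.972). Among the other eIF2 alpha kinases and their control genes, 7 of 8 were measured, 3 higher and 4 lower (median -0.0088, 0 passed). Of the 7, 2 were lower without overlap, against 6.04% of all rows. These were Ppp1r15b, which is also on this list, and the interferon-induced kinase Eif2ak2. Eif2ak2 had -0.34 ± 0.12 (limma adjusted p 0.837). Without Mthfd1S+/- mouse 2 its difference was -0.20.

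Levels of other cell types moved with some of these mice. Smooth muscle markers (12 of 12 measured and 12 higher in Mthfd1S+/- mice, against 54.0% of all rows) were averaged like the arms. They stood between -0.27 and 0.090 in WT and at -0.036 and 0.43 in Mthfd1S+/- mice. Mthfd1S+/- mouse 2 was highest for 12 of 12 of them, against 19.4% of all rows. It was highest for 8 of 12 enteroendocrine, 3 of 14 goblet cell and 0 of 12 plasma cell markers. Enteroendocrine markers (12 of 12 higher, against the same 54.0%) stood between -0.26 and 0.084 in WT and at 0.11 and 0.26 in Mthfd1S+/- mice. Goblet cell markers (14 measured, 3 higher and 11 lower) stood between -0.064 and 0.17 in WT and at -0.24 and 0.026 in Mthfd1S+/- mice. Much of their high mean in WT mouse 3, but not all, came from Retnlb, at 11.86 there. An average over the other 13 markers was added after the values were seen. In it WT mouse 3 stood at 0.071, next below the highest, WT mouse 4 at 0.12.

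Plasma cell markers (12 measured, 4 higher and 8 lower) stood between -0.093 and 0.26 in WT, highest in WT mouse 3, and at -0.091 and -0.074 in Mthfd1S+/- mice. This list shares Derl3 and Fkbp11, and the goblet cell list shares Creb3l1, with the pathway lists. Colonocyte markers (14) stayed between -0.047 and 0.055, and macrophage and dendritic cell markers (11) between -0.12 and 0.091. The part of these cells in the chaperone levels of WT mouse 3 and Mthfd1S+/- mouse 2 was not tested.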

How the data were processed

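The deposited table holds log2 intensities, with a row for each transcript cluster and a column for each array. The submitters' processing notes name Affymetrix Expression Console as software. The software version, summarisation method, build and background step were not given in the sources used here. Values of 1.06 to 13.51 fit a log2 unit, which was inferred from them. Of 41345 rows, 23521 had 1 gene symbol in the platform table and were tested, 1814 had several and 16010 had none. All 10 genes matched the RefSeq gene table by identifier.

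The test was limma 3.58.1 (R 4.3.3, two-sided, lmFit with eBayes and no covariate), adjusted over all tested rows at 0.05, and tested on simulated data beforehand. The number of arrays limits the precision. With 2 Mthfd1S+/- mice the median SE of a log2 difference was 0.106. The labels name the arrays biological replicates.

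Members, 6 pathway lists and 6 marker lists were chosen with earlier results of these data known. Named outside the 10 were up to 4 genes per list with the smallest p, up to 3 genes at its head and the 3 most like Hspa5 and Atf4. Ppib, Slc7a5, Ddost and Sec61a1 were named after their values were seen. Promoters are from RefSeq (GRCm38.p6). Normalization, row filters, variance model, replicate block and each mouse were varied.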

Additional observations from a re-analysis of the deposited data

Results flagged for a closer look

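Among the 4 WT mice, 2 of the 10 genes had a value far from the rest, judged by the gap to the nearest mouse over the whole range. For Ern2 that ratio was 0.882, from WT mouse 4 at 10.05 against 9.82 to 9.85. For Herpud1 it was 0.864, from WT mouse 1 at 9.40 against 9.86 to 9.94. By chance about 1 group in 20 gives such a value.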

How the results depend on the processing

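No row passed the adjusted threshold under any of the 13 alternatives that refit the table, and none of the 10 genes did. Rows at an unadjusted p under 0.05 and at least 1.5-fold apart numbered 79, and 43 above the median level, 635 over all rows of the table, 30 with unmoderated least squares, 292 with the replicate block and 65 to 340 leaving out each mouse (153 without WT mouse 4, 340 without Mthfd1S+/- mouse 1 and 159 without Mthfd1S+/- mouse 2). Of 130 recomputed differences of the 10 genes, 121 kept their sign and 9 did not. Atf4 was 0.0089 with arrays centred on their median, and Ddit3 -0.028 with the replicate block. The replicate block changed no adjusted call. It put 1 of the 10 genes, Herpud1, at an unadjusted p under 0.05 (0.33, limma unadjusted p 0.0304, adjusted p 0.45). In that fit only mice numbered 1 and 2 inform the difference, because WT mice 3 and 4 have no Mthfd1S+/- mouse of their number. It leaves little information on the spread, and WT mouse 1 is the mouse flagged above for Herpud1. Mice numbered 1 and 2 in both genotypes deviated from their group means with correlations of 0.12 and -0.044. The deviations of the 2 Mthfd1S+/- mice mirror each other, and WT mouse 1 with Mthfd1S+/- mouse 2 gave -0.12. These values therefore cannot tell whether mice with the same number were paired. Leaving out each mouse gave -0.013 to 0.11 for Ern2, -0.065 to 0.23 for Xbp1, -0.14 to 0.37 for Hspa5, -0.085 to 0.14 for Hsp90b1, -0.024 to 0.22 for Sdf2l1, -0.19 to 0.047 for Asns, 0.075 to 0.31 for Herpud1, 0.018 to 0.14 for Ddit3 and -0.038 to 0.34 for Hyou1. The medians ran from -0.054 to 0.27 for the chaperone arm and from -0.043 to 0.047 for the Atf4 arm, and the ER chaperones higher in Mthfd1S+/- from 10 to 22 of 23, an alternative chosen after seeing the data. Each sign change when a mouse was left out came from leaving out the second Mthfd1S+/- mouse, with 1 more for Hsp90b1 without WT mouse 2. Without 1 of the 2 Mthfd1S+/- mice, the lone mouse was assumed to vary like the WT group. Each of the 10 genes lies on a single row, so no other row could be tried. No detection p was used, so rows at background level could not be marked.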
